A study of Mus musculus with 16 samples.

Results

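The transcripts of 10 cytokine receptor genes were followed through 6 sorted stages of germinal centre and memory B cell formation in the mouse spleen. The genes are Il21r, Il4ra, Il2rg, Il6ra, Il6st, Il9r, Il10ra, Il10rb, Il13ra1 and Ifngr1. They were taken by symbol from a table of 23234 named genes, and all 10 were found in it. The table holds 16 RNA-seq libraries, with values in FPKM, fragment counts divided by transcript length and library size, so levels can be compared between genes.

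All 6 groups were donor B cells of the C57BL/6 strain with the genotype Bcl6-YFP(KI/+) B1-8hi(KI/+), that is, with a fluorescent reporter at 1 Bcl6 allele and a knocked-in antibody heavy chain that binds the hapten NP. The cells were moved into wild-type CD45.1+ recipients, which were immunised with NP-CGG in alum, and were sorted on day 10 as CD45.2+ NP-binding CD138- IgG1+ cells from the pooled spleens of 9 recipients. The LZ gate held CD38- CD86hi CXCR4lo germinal centre light zone cells (3 libraries). Fraction 2 was the Bcl6-YFPhi CD69hi portion of that gate, labelled recycling-prone (2 libraries), and Fraction 3 was its Bcl6-YFPhi CD69lo portion, labelled as being under selection (3 libraries), so LZ also contains cells of these fractions. The remaining gates were CD38+ GL7- cells. Fraction 5 was Bcl6-YFPhi Efnb1hi and labelled pro-memory (3 libraries), Fraction 6 was Bcl6-YFPlo Efnb1hi and labelled pre-memory (2 libraries), and Fraction 7 was Bcl6-YFPlo Efnb1lo and labelled mature memory (3 libraries). Each library came from 10000 to 20000 sorted cells. Donor cells with a chosen heavy chain, pooled from several mice, stand for 1 antibody specificity and not for a natural repertoire. Whether each library of a gate had its own pool of mice is not in the labels, and the p-values then cover the scatter among libraries, possibly a technical one.

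Receptors of this family have no enzyme activity of their own. A ligand joins a specific chain to a shared chain, and Janus kinases bound to the tails of the chains phosphorylate each other and then STAT factors, which enter the nucleus. In germinal centres, follicular helper T cells supply IL-21 and IL-4 to B cells. IL-21 acts through Il21r and mainly STAT3, IL-4 through Il4ra and STAT6, and both need Il2rg, the common gamma chain that also serves the receptors for IL-2, IL-7, IL-9 and IL-15.

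The start regions of 3 of the genes are shown because their transcripts took different courses over the gates. Il4ra and Il21r are neighbours on chromosome 7 with no protein-coding gene between them, and Il6ra had the largest change of the 10. The lines give the 250 bases before the annotated start of each gene, from RefSeq on build GRCm38.p6, with capitals at matches to the motifs named below them.
Il21r promoter, chr7:125603179-125603428 (+ strand): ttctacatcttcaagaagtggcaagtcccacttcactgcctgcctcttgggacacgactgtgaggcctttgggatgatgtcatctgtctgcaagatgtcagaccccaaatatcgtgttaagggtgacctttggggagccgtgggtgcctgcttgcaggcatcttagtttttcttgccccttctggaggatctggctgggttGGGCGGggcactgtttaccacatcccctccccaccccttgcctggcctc
Il4ra promoter, chr7:125552021-125552270 (+ strand): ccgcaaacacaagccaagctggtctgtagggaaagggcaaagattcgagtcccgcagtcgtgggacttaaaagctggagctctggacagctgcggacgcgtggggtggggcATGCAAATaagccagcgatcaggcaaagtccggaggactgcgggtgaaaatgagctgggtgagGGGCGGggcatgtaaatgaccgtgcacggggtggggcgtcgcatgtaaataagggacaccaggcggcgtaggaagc
Il6ra promoter, chr3:89913197-89913446 (- strand): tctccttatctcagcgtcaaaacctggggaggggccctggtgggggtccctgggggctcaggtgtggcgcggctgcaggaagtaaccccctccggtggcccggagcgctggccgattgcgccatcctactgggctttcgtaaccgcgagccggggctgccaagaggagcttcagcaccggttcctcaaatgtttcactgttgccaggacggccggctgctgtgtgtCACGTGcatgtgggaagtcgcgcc
The motifs were chosen after these sequences had been seen, and both strands were searched. The octamer ATGCAAAT was found in the Il4ra window and in 1.6% of 32851 RefSeq promoter windows of the same length. CACGTG, an E-box, was found in the Il6ra window and in 6.02% of all windows. GGGCGG, a GC box, was found in the Il21r and Il4ra windows, in 5 of the 8 receptor genes that have an entry, and in 32.7% of all windows. The palindrome TTCNNNGAA, a form bound by STAT factors, was found in 0 of the 8 and in 7.02% of all windows. No 2 of the marked matches overlap. A match of letters is a description and not a binding site. Il10ra and Il10rb had no entry in the promoter table and are named only.

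The FPKM of a library summed to between 416741 and 492578, and 10133 to 10552 genes reached 1 FPKM in each. The files give no read counts, so depth is unknown. Transcripts of the sort genes followed the gates in part. Efnb1 averaged 64.2 FPKM in Fraction 5 and 29.9 FPKM in Fraction 6, although both gates were set as Efnb1hi. Bcl6 averaged 18.0 FPKM in Fraction 7 and 165 FPKM in LZ, Efnb1 2.15 FPKM in Fraction 7 and 52.2 FPKM in LZ, and Cd38 75.0 FPKM in Fraction 7 and 10.9 FPKM in LZ. Cd69 mRNA did not pass the test between Fraction 2, at 13.4 FPKM, and Fraction 3, at 11.8 FPKM (limma adjusted p = 0.361), although the gates were set on its protein. Cd79a, a B cell receptor signalling chain, reached 1503 FPKM, and Cd3e, a defining T cell gene, stayed at or below 0.103 FPKM in all 16 libraries. Of 11 T cell markers, 7 stayed under 1 FPKM in every library, Cd8b1, Cd5 and Thy1 reached at most 2.05 FPKM, and Lat, a signalling adaptor, averaged 0.584 FPKM in Fraction 7 and 6.14 FPKM in LZ, with up to 9.80 FPKM in Fraction 3. Fraction 7 libraries 2 and 3 stood apart in plasma cell transcripts: Sdc1, which encodes the CD138 protein used to remove plasma cells, was at 4.44 and 4.51 FPKM against 0.502 FPKM in library 1, and Igj, the antibody J chain, at 296 and 292 FPKM against 46.9 FPKM. Receptor results and counts of called genes in Fraction 7 were therefore also computed without these libraries, a choice made after their values were seen. Results on the other named genes were not. The 4 granulocyte markers in the file, mostly S100a8 and S100a9, summed to 19.2 FPKM in LZ library 2, 26.2 FPKM in Fraction 3 library 3 and 28.7 FPKM in Fraction 7 library 3. They summed to 16.8 FPKM in Fraction 6 library 1, where the granule enzyme genes Mpo and Elane were at 4.86 and 4.40 FPKM and at or below 0.180 FPKM in the other libraries. The 4 erythroid markers, mostly the globin genes Beta-s and Hba-a1, summed to between 34.3 and 140 FPKM in Fraction 5. The lowest sum in any gate was 33.1 FPKM, in Fraction 2. The part of granulocyte and erythroid transcripts in the results was not tested.

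Il13ra1, a chain that joins Il4ra in the IL-4 and IL-13 receptor of non-lymphoid cells, stayed at or below 0.234 FPKM in every library and was not tested. The other 9 genes passed the filter of at least 1 FPKM in at least 2 libraries, which 11266 genes passed. All 9 had an adjusted p under 0.05 in limma's F test over the 6 gates, where 69.7% of all tested genes did so. The F test of Il9r was lost without Fraction 3 library 1 or 3 (limma adjusted p = 0.0524 and 0.0578) or with no filter (limma adjusted p = 0.0611), and that of Ifngr1 without Fraction 7 library 1 or 2 (limma adjusted p = 0.0923 and 0.0602). Levels spanned a wide range: Il2rg, Il21r, Il4ra and Ifngr1 lay at or above 33.1 FPKM in every library, Il9r, Il10ra and Il10rb between 4.34 and 59.2 FPKM, and Il6ra and Il6st near 1 FPKM in the germinal centre gates.

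**Figure D1:**
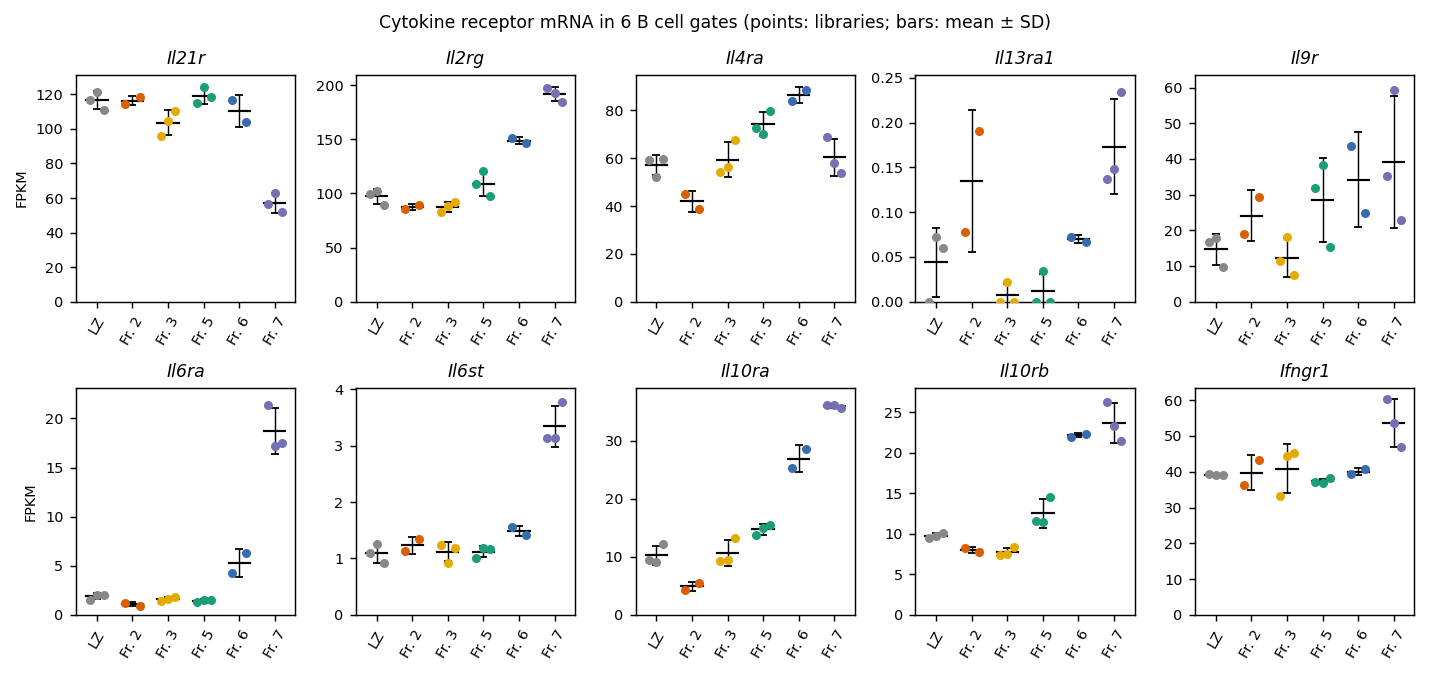
Each panel shows 1 receptor gene, with FPKM on the y axis (each panel has its own scale) and the 6 gates on the x axis in the order LZ, Fractions 2, 3, 5, 6 and 7. Points are libraries and bars are the mean ± SD. Il21r is the gene that is lowest in Fraction 7, at 57.1 FPKM, while Il2rg, Il6ra, Il6st, Il10ra and Ifngr1 are highest there with no library of another gate reaching them.

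Il21r encodes the specific chain of the IL-21 receptor. It was held at 117, 122 and 111 FPKM in LZ, 114 and 118 FPKM in Fraction 2, 95.9, 105 and 110.3 FPKM in Fraction 3, 115, 124 and 118 FPKM in Fraction 5, and 117 and 104 FPKM in Fraction 6. In Fraction 7 it was 56.3, 63.1 and 51.8 FPKM. All 3 Fraction 7 libraries lay below all 13 others. The 5 earlier gates lay close together, between 95.9 and 124 FPKM, and overlapped with their neighbours in the order of means. Fraction 3 lay below every library of LZ and Fractions 2 and 5, and none of these differences passed the threshold as deposited. Il21r fell by 48.3% of its mean FPKM in Fraction 7 relative to Fraction 6, a change of -0.94 ± 0.09 (SE) on the log2(FPKM + 1) scale (limma adjusted p = 6.11e-06), and by 51.0% relative to LZ (-1.02 ± 0.08, limma adjusted p = 7.79e-08). After quantile normalisation the fall was smaller, at -0.62 relative to LZ (limma adjusted p = 3.24e-05) and -0.83 relative to Fraction 6 (limma adjusted p = 4.04e-05). Library 1 of Fraction 7, with little plasma cell transcript, lay between the other two. Fraction 5 against Fraction 3 had a difference of 0.20 ± 0.08 that missed the threshold (limma adjusted p = 0.0728). It passed under quantile normalisation (0.35, limma adjusted p = 0.00821) and median-ratio scaling (0.24, limma adjusted p = 0.0200). In bulk samples such as these, fewer cells that carry a transcript and less transcript per cell cannot be told apart.

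Il2rg, the common gamma chain, took the opposite course to Il21r at the last stage. It was at 99.6, 103 and 89.4 FPKM in LZ, 85.4 and 89.2 FPKM in Fraction 2, 82.9, 88.5 and 92.0 FPKM in Fraction 3, and 108, 121 and 98.0 FPKM in Fraction 5. It then stood at 151 and 147 FPKM in Fraction 6 and 197, 193 and 185 FPKM in Fraction 7. The 3 gates of CD38+ cells did not overlap each other and climbed in the order Fraction 5, 6, 7, while Fraction 3 overlapped with Fraction 2 and with LZ, and Fraction 2 lay just below LZ. On the log2 scale Il2rg rose by 0.31 ± 0.08 in Fraction 5 over Fraction 3 (limma adjusted p = 0.00918) and by 0.31 ± 0.09 over Fraction 2 (limma adjusted p = 0.0095). It rose by 0.45 ± 0.09 in Fraction 6 over Fraction 5 (limma adjusted p = 0.0023) and by 0.36 ± 0.09 in Fraction 7 over Fraction 6 (limma adjusted p = 0.00849). The last of these missed the threshold without Fraction 6 library 2 (limma adjusted p = 0.0751), and the rise over Fraction 2 missed it without Fraction 2 library 1 (limma adjusted p = 0.0725) or with only these gates in the fit (limma adjusted p = 0.0570). Its mean in Fraction 7 was 1.97 times that in LZ. Thus in Fraction 7, Il2rg was at 192 ± 6.5 FPKM and Il21r at 57.1 ± 5.68 FPKM, whereas in LZ Il2rg was at 97.2 ± 6.9 FPKM and Il21r at 117 ± 5.22 FPKM (SD, n = 3 each).

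Il4ra encodes the chain that binds IL-4, and its course was not monotonic. It was at 59.4, 52.3 and 59.8 FPKM in LZ, 45.2 and 38.9 FPKM in Fraction 2, 54.2, 56.2 and 67.7 FPKM in Fraction 3, 72.8, 70.2 and 79.9 FPKM in Fraction 5, 84.0 and 88.7 FPKM in Fraction 6, and 69.0, 58.2 and 53.7 FPKM in Fraction 7. By mean, Fraction 2 was the lowest gate and Fraction 6 the highest, and Fractions 5 and 6 did not overlap with any other gate. Fraction 6 over Fraction 5 missed the threshold (0.22 ± 0.12, limma adjusted p = 0.247). It passed under quantile normalisation (0.31, limma adjusted p = 0.0361). Fraction 2 relative to LZ also missed the threshold (-0.44 ± 0.12, limma adjusted p = 0.0545). Il4ra fell in Fraction 2 relative to Fraction 3 (-0.48 ± 0.12, limma adjusted p = 0.0158), a call lost without Fraction 2 library 2 (limma adjusted p = 0.148) or Fraction 3 library 3 (limma adjusted p = 0.0603), or with only these gates in the fit (limma adjusted p = 0.0716). It rose in Fraction 5 over Fraction 2 (0.81 ± 0.12, limma adjusted p = 0.000102) and, less firmly, over Fraction 3 (0.32 ± 0.11, limma adjusted p = 0.0353). The Fraction 5 over Fraction 3 call was lost without library 1 or 2 of Fraction 3 or library 1 or 3 of Fraction 5, with limma adjusted p up to 0.134, and also with no filter (limma adjusted p = 0.0690) or with only these gates in the fit (limma adjusted p = 0.0555). It fell again in Fraction 7 relative to Fraction 6 (-0.52 ± 0.12, limma adjusted p = 0.00666). That call was lost without Fraction 6 library 2 (limma adjusted p = 0.0680). The fall was -0.32 without Fraction 7 libraries 2 and 3 (limma adjusted p = 0.180), and these were the libraries with more plasma cell transcript and less Il4ra. Fraction 7 and LZ overlapped (0.07 ± 0.11, limma adjusted p = 0.582), although quantile normalisation put Fraction 7 higher by 0.47 (limma adjusted p = 0.000364). The 2 neighbouring genes therefore differed in their order of means. The mean Il4ra level was 86.3 FPKM in Fraction 6 and 60.3 FPKM in Fraction 7. The mean Il21r level was 119 FPKM in Fraction 5 and 57.1 FPKM in Fraction 7. The top step of each order missed the threshold as deposited. Fraction 7 was above Fraction 2 for Il4ra (0.51 ± 0.12, limma adjusted p = 0.00201). For Il21r it was below Fraction 2 (-1.02 ± 0.09, limma adjusted p = 2.31e-07). Alternative settings were not run for these contrasts.

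Il9r, whose ligand IL-9 has been studied in memory B cell responses, was the most variable of the receptors between libraries of 1 gate. It was at 16.6, 17.8 and 9.69 FPKM in LZ, 19.0 and 29.3 FPKM in Fraction 2, 11.3, 18.2 and 7.53 FPKM in Fraction 3, 31.9, 38.3 and 15.3 FPKM in Fraction 5, 43.7 and 24.8 FPKM in Fraction 6, and 35.1, 59.2 and 22.8 FPKM in Fraction 7. Library 3 was the lowest and library 2 the highest in each of the 4 gates with 3 libraries, with a ratio of highest to lowest between 1.84 and 2.59. Its residual SD was 0.58 on the log2 scale, larger than that of 97.7% of tested genes. Il9r rose in Fraction 7 over LZ, with means of 39.0 ± 18.5 FPKM in Fraction 7 and 14.7 ± 4.38 FPKM in LZ (SD, n = 3 each; 1.29 ± 0.41, limma adjusted p = 0.0148), and with all 3 Fraction 7 libraries above all 3 LZ libraries. The call was lost without LZ library 3 (limma adjusted p = 0.0665), Fraction 7 library 2 (limma adjusted p = 0.0755) or Fraction 7 libraries 2 and 3 together (limma adjusted p = 0.0825). Fraction 5 over Fraction 3 had a difference of 1.13 ± 0.41 that missed the threshold (limma adjusted p = 0.0554). It passed under quantile normalisation (limma adjusted p = 0.0479), median-ratio scaling (limma adjusted p = 0.0470) and a filter of 5 FPKM (limma adjusted p = 0.0479). Neighbouring gates in the order of Il9r means did not differ past the threshold. Gates further apart did: Il9r was higher with no overlap in Fraction 7 than in Fraction 3 (1.56 ± 0.41, limma adjusted p = 0.00477). The same held for Fraction 6 over Fraction 3 (1.42 ± 0.46, limma adjusted p = 0.0216). Alternative settings were not run for these pairs. The 3 genes most like Il9r over the 16 libraries were Chd3, Abca2 and H2-T22, with Pearson r on the log2 scale of 0.915, 0.904 and 0.900. Chd3, a chromatin remodelling ATPase, was also lowest in library 3 of every gate with 3 libraries: 5.94 FPKM in LZ, 6.45 FPKM in Fraction 3, 9.07 FPKM in Fraction 5 and 10.7 FPKM in Fraction 7. Abca2 and H2-T22 were also lowest in library 3 of each of these gates. The likeness includes this shared difference between libraries, and its source was not tested.

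**Figure D2:**
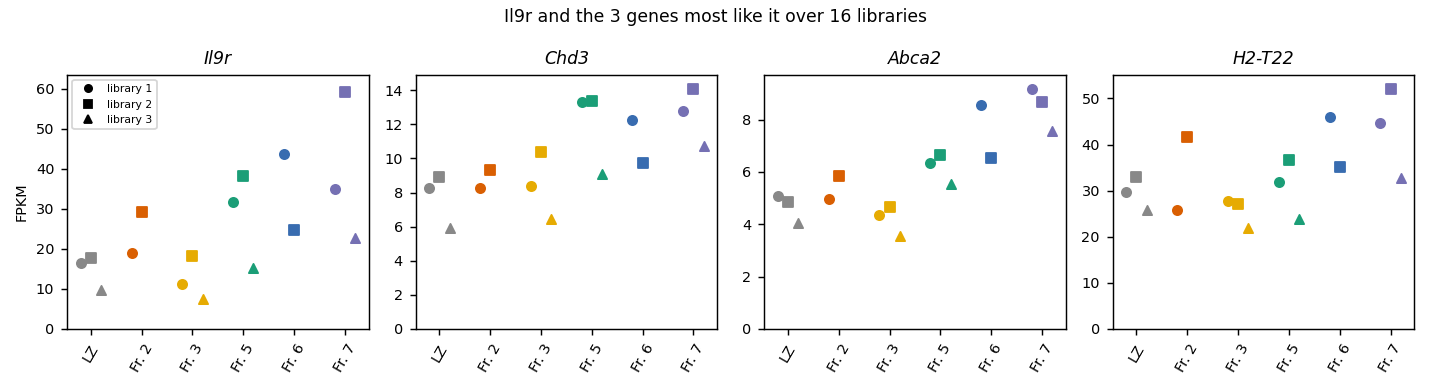
FPKM of Il9r and of the 3 genes most like it on the y axis, with the 6 gates on the x axis, each library drawn as a point whose shape gives its number. Library 3 is the lowest Il9r library in LZ and Fractions 3, 5 and 7, and the same libraries are lowest in Chd3, Abca2 and H2-T22.

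Il6ra encodes the specific chain of the IL-6 receptor, and its rise was the largest of the set. It was at 1.54, 2.07 and 2.08 FPKM in LZ, 1.24 and 0.929 FPKM in Fraction 2, 1.39, 1.65 and 1.86 FPKM in Fraction 3, and 1.29, 1.53 and 1.51 FPKM in Fraction 5. It was at 4.29 and 6.27 FPKM in Fraction 6 and at 21.4, 17.2 and 17.5 FPKM in Fraction 7. The first 4 gates lay close to the filter limit, and neither Fraction 6 nor Fraction 7 overlapped with any other gate. Its mean FPKM in Fraction 6 was 3.66 times that in Fraction 5 (1.34 ± 0.15 on the log2 scale, limma adjusted p = 3.92e-05). In Fraction 7 it was 3.55 times that in Fraction 6 (1.66 ± 0.15, limma adjusted p = 5.81e-06) and 9.87 times that in LZ (2.77 ± 0.14, limma adjusted p = 1.12e-09). The added 1 in the log scale makes the log2 changes of such low genes smaller than those of the FPKM ratios. Library 1 of Fraction 7, with the least plasma cell transcript, had the most Il6ra.

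Il6st encodes gp130, the signalling chain shared by the receptors for IL-6 and related cytokines. It stayed between 0.927 and 1.34 FPKM in LZ and Fractions 2, 3 and 5, was at 1.55 and 1.42 FPKM in Fraction 6, and at 3.14, 3.14 and 3.76 FPKM in Fraction 7. Fraction 7 lay above all other libraries. Il6st rose in Fraction 7 over Fraction 6 (0.80 ± 0.12, limma adjusted p = 0.000358) and over LZ (1.05 ± 0.11, limma adjusted p = 1.53e-06). The Fraction 6 over Fraction 5 difference of 0.23 ± 0.12 did not pass (limma adjusted p = 0.227), where that of Il6ra did. Both chains of the IL-6 receptor were therefore highest in Fraction 7, at 18.7 ± 2.34 FPKM for Il6ra and 3.35 ± 0.362 FPKM for Il6st (SD, n = 3).

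Il10ra and Il10rb together form the receptor for IL-10, and Il10rb also serves other cytokines. Il10ra was at 9.52, 9.10 and 12.1 FPKM in LZ, 4.34 and 5.46 FPKM in Fraction 2, 9.23, 9.52 and 13.2 FPKM in Fraction 3, 13.7, 15.0 and 15.5 FPKM in Fraction 5, 25.2 and 28.5 FPKM in Fraction 6, and 36.2, 36.2 and 35.6 FPKM in Fraction 7. Fraction 2 lay below and Fractions 5, 6 and 7 above every library of the other gates, in that order. Il10ra fell by 54.0% of its mean FPKM in Fraction 2 relative to Fraction 3 (-0.97 ± 0.15 on the log2 scale, limma adjusted p = 0.00139). It rose in Fraction 5 over Fraction 2 (1.42 ± 0.15, limma adjusted p = 5.32e-06) and in Fraction 6 over Fraction 5 (0.82 ± 0.15, limma adjusted p = 0.00131). The rise in Fraction 5 over Fraction 3 was smaller (0.45 ± 0.13, limma adjusted p = 0.0194) and was lost without library 1 or 2 of Fraction 3 or library 3 of Fraction 5, with limma adjusted p up to 0.0852, or with only these gates in the fit (limma adjusted p = 0.0574). Fraction 7 over Fraction 6 missed the threshold (0.41 ± 0.15, limma adjusted p = 0.0615). It passed under quantile normalisation (0.51, limma adjusted p = 0.0165) and median-ratio scaling (0.48, limma adjusted p = 0.0245). It also passed with array weights (limma adjusted p = 0.0383) and with only these gates in the fit (limma adjusted p = 0.0390). The same held without library 3 of LZ or library 3 of Fraction 3.

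Il10rb was at 9.44, 9.71 and 10.1 FPKM in LZ, 8.26 and 7.73 FPKM in Fraction 2, 7.37, 7.57 and 8.36 FPKM in Fraction 3, 11.6, 11.5 and 14.6 FPKM in Fraction 5, 22.0 and 22.4 FPKM in Fraction 6, and 26.3, 23.4 and 21.5 FPKM in Fraction 7. Fractions 6 and 7 overlapped, and Fraction 5 lay between them and the CD38- gates. It rose in Fraction 5 over Fraction 3 (0.62 ± 0.10, limma adjusted p = 0.000328) and over Fraction 2 (0.58 ± 0.11, limma adjusted p = 0.000568), and in Fraction 6 over Fraction 5 (0.78 ± 0.11, limma adjusted p = 0.000157). The level in Fraction 2 relative to Fraction 3 had a difference of 0.04 ± 0.11 for Il10rb (limma adjusted p = 0.853) beside the fall of Il10ra. In Fraction 7 over LZ the FPKM ratio was 3.51 for Il10ra and 2.43 for Il10rb, with limma adjusted p = 6.57e-08 for Il10ra and 1.11e-07 for Il10rb. Il10rb lies between the interferon receptor genes Ifnar2 and Ifnar1 on chromosome 16, and those rose in the same comparison by 1.08 ± 0.18 for Ifnar2 (limma adjusted p = 0.000115) and 0.90 ± 0.10 for Ifnar1 (limma adjusted p = 3.41e-06).

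Ifngr1, the ligand-binding chain of the interferon gamma receptor, changed least. It ranged from 33.1 to 45.1 FPKM over the 13 libraries of LZ and Fractions 2, 3, 5 and 6, and it was at 60.2, 53.6 and 46.9 FPKM in Fraction 7. Fraction 7 lay above all others, by a small margin in library 3. It rose in Fraction 7 over LZ (0.43 ± 0.11, limma adjusted p = 0.0042) and over Fraction 6 (0.41 ± 0.13, limma adjusted p = 0.0347). The call against Fraction 6 was lost without either library of Fraction 6 or library 1 or 2 of Fraction 7, with limma adjusted p up to 0.161, and also with no filter (limma adjusted p = 0.0630) or with only these gates in the fit (limma adjusted p = 0.0874). Its partner Ifngr2, the signalling chain of the same receptor, rose earlier, to 22.4 ± 1.9 FPKM in Fraction 5 against 15.8 ± 2.3 FPKM in Fraction 3 (SD, n = 3 each; 0.48 ± 0.10, limma adjusted p = 0.00289), and to 33.1 FPKM in Fraction 6 (0.54 ± 0.11 over Fraction 5, limma adjusted p = 0.0041).

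**Figure D3:**
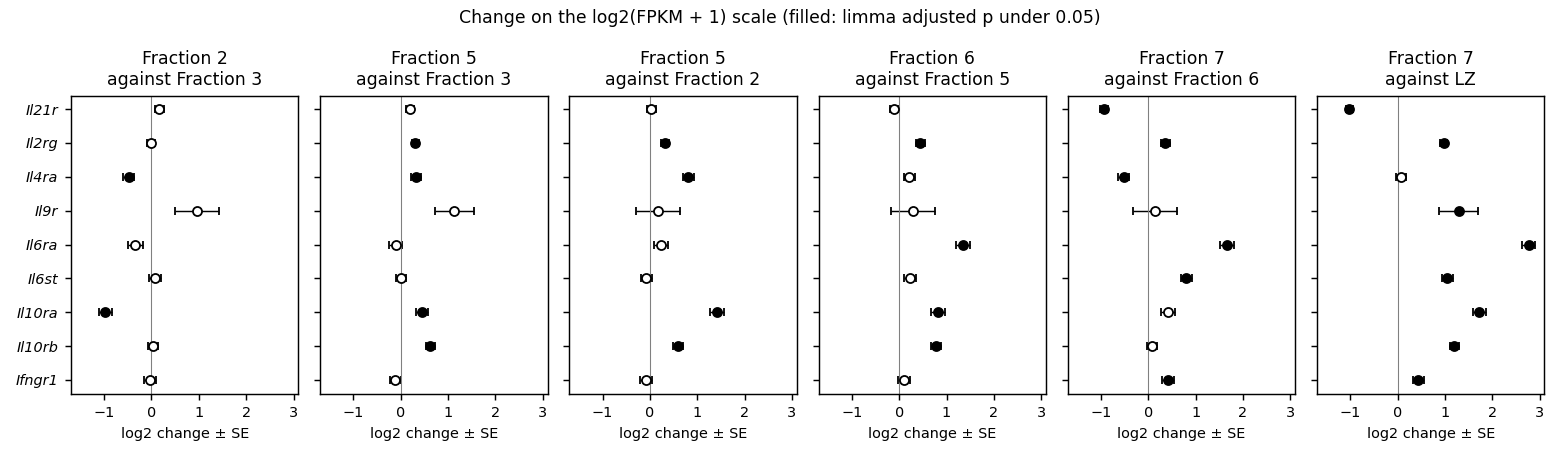
The log2(FPKM + 1) change of each tested receptor gene (x axis, with SE bars) in the 6 comparisons, 1 panel each, with genes down the y axis. Filled points have a limma adjusted p under 0.05. In Fraction 7 against LZ, 7 of the 9 points are filled to the right and Il21r is filled to the left at -1.02, and in Fraction 2 against Fraction 3 the only filled points are Il4ra and Il10ra, both to the left.

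Counted over the set, the changes ran mostly upward through the CD38+ stages. In Fraction 2 against Fraction 3, which sets CD69hi against CD69lo light zone cells, 0 of 9 tested receptor genes rose and 2 fell, where 15.6% of all tested genes were called, 9.17% higher and 6.45% lower, and the median change was -0.01 for the set and 0.04 for all genes. In Fraction 5 against Fraction 3, 4 rose (Il4ra, Il2rg, Il10ra and Il10rb) and 0 fell, where 29.5% of all genes were called, 9.99% higher and 19.5% lower, with medians of 0.31 for the set and -0.03 for all genes. The same count of 4 rising and 0 falling was found in Fraction 5 against Fraction 2, for the same 4 genes, where 43.7% of all genes were called, 16.6% higher and 27.1% lower, with medians of 0.23 for the set and -0.04 for all genes. These comparisons share the Fraction 5 libraries.

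Between the CD38+ gates, 4 receptor genes rose in Fraction 6 against Fraction 5 (Il2rg, Il6ra, Il10ra and Il10rb) and 0 fell, where 17.5% of all genes were called, 7.07% higher and 10.4% lower, with medians of 0.30 for the set and -0.00213 for all genes. In Fraction 7 against Fraction 6, 4 rose (Il2rg, Il6ra, Il6st and Ifngr1) and 2 fell (Il21r and Il4ra), where 21.2% of all genes were called, 7.37% higher and 13.9% lower, with medians of 0.36 for the set and -0.05 for all genes. Without Fraction 6 library 2 that count of 6 was 3. In Fraction 7 against LZ, Il2rg, Il6ra, Il6st, Il9r, Il10ra, Il10rb and Ifngr1 rose and Il21r fell, where 62.1% of all genes were called, 24.1% higher and 38% lower. The median change there was 1.05 for the set and -0.10 for all genes, and quantile normalisation moved the median of all genes by 0.12. Each rise named in the Fraction 7 against LZ comparison exceeds that shift. Some receptors moved by more than the median of all genes. Quantile normalisation took Il2rg from 0.97 to 1.37, Ifngr1 from 0.43 to 0.79 and Il21r from -1.02 to -0.62, while Il6st went from 1.05 to 0.98.

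Markers of myeloid cells, which also express several of these receptors, moved with the later gates. The summed level of the 10 markers was 44.3 to 47.5 FPKM in Fraction 7, 27.7 to 35.8 FPKM in Fraction 6 and 8.99 to 15.1 FPKM in LZ. Mpeg1, a pore-forming protein gene that B cells also express, made up most of it, with 39.9 ± 1.89 FPKM in Fraction 7 and 11.4 ± 2.23 FPKM in LZ (SD, n = 3 each). Of the 10 markers, 6 stayed under 1 FPKM in all 3 libraries of Fraction 7: Cd14, a monocyte gene, was at 0 there, and Csf1r, the receptor that defines macrophages, did not exceed 0.528 FPKM. Others were detected: Emr1, the macrophage antigen F4/80, averaged 1.62 FPKM in Fraction 7, 1.23 FPKM in Fraction 6 and 0.112 FPKM in LZ, and Zbtb46, a dendritic cell factor, averaged 1.55 FPKM in Fraction 7, 1.07 FPKM in Fraction 6 and 0.239 FPKM in LZ. Lyz2, a lysozyme gene of myeloid cells, was at 1.08 to 3.34 FPKM in Fraction 7, 1.08 to 5.70 FPKM in Fraction 6 and 0 to 2.34 FPKM in LZ. Markers of follicular dendritic and stromal cells, 5 of which are in the file, summed to 63.3 to 72.8 FPKM in Fraction 7, 59.2 to 59.7 FPKM in Fraction 6 and 24.3 to 28.5 FPKM in LZ. Most of that was Pecam1, an adhesion gene also found in leukocytes, with 65.9 FPKM in Fraction 7 and 24.9 FPKM in LZ. The summed level of the 5 plasma cell markers was 318 to 599 FPKM in Fraction 7, 249 to 256 FPKM in Fraction 6 and 389 to 458 FPKM in LZ. The part of these cell types in the receptor changes was not tested.

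The kinases that carry the signal were expressed in every gate. Of the 4 Janus kinases, 3 rose in Fraction 5 over Fraction 3 and 0 fell, where 29.5% of all genes were called and 9.99% were higher, with a median change of 0.25 against -0.03 for all genes. Jak1 rose by 0.22 ± 0.07 (limma adjusted p = 0.0365), Jak3, the partner of Il2rg, by 0.32 ± 0.10 (limma adjusted p = 0.0291), and Tyk2 by 0.28 ± 0.08 (limma adjusted p = 0.0151). Jak2 did not pass in any of the 6 comparisons as deposited. After quantile normalisation Jak2 passed in Fraction 2 against Fraction 3 (-0.31, limma adjusted p = 0.0363), Fraction 5 against Fraction 2 (0.42, limma adjusted p = 0.00227) and Fraction 7 against LZ (0.27, limma adjusted p = 0.0117), and the first 2 of these also passed with median-ratio scaling. In Fraction 7 against Fraction 6, Jak3 fell, with 48.3 ± 2.0 FPKM in Fraction 7 and 67.4 ± 3.4 FPKM in Fraction 6 (SD, n = 3 and 2; -0.47 ± 0.11, limma adjusted p = 0.00802), and Jak1 fell by 0.28 ± 0.08 (limma adjusted p = 0.026). In Fraction 7, Jak1 was at 99.4 FPKM in library 1 and at 87.5 and 76.7 FPKM in libraries 2 and 3, those with more plasma cell transcript. Jak3 thus fell in the comparison in which Il2rg rose. In Fraction 7 against LZ the Jak3 difference was -0.05 as deposited and 0.31 after quantile normalisation, so no direction is given for it.

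Among 6 STAT factors, Stat4, which is best known from IL-12 and type I interferon signalling, changed most. It was at 3.38, 3.98 and 2.1 FPKM in LZ, 2.28 and 3.55 FPKM in Fraction 2, 2.53, 3.83 and 3.19 FPKM in Fraction 3, 4.66, 4.71 and 5.26 FPKM in Fraction 5, 8.35 and 7.75 FPKM in Fraction 6, and 17.6, 14.5 and 16.2 FPKM in Fraction 7. The 3 CD38+ gates lay above the earlier gates and did not overlap each other. Stat4 rose in Fraction 7 over LZ by 2.07 ± 0.17 (limma adjusted p = 1.84e-07). Stat6, the factor of IL-4 signalling, was at 54.8, 43.8 and 49.6 FPKM in Fraction 7 and 35.3, 35.6 and 34.8 FPKM in LZ, and it rose by 0.47 ± 0.07 (limma adjusted p = 4.79e-05). Stat3, the main factor of IL-21 and IL-6 signalling, was at 39.5 ± 6.0 FPKM in Fraction 7 and 50.2 ± 3.0 FPKM in LZ (SD, n = 3 each; -0.35 ± 0.09, limma adjusted p = 0.00454), and after quantile normalisation that change was -0.01 (limma adjusted p = 0.903). Stat3 was at 45.5 FPKM in library 1 of Fraction 7 and at 39.7 and 33.4 FPKM in libraries 2 and 3, those with more plasma cell transcript. Stat5b rose by 0.26 ± 0.08 in Fraction 7 over LZ (limma adjusted p = 0.0159), and Stat2 and Stat5a did not pass the threshold there. In Fraction 2 against Fraction 3, Stat6 rose (0.29 ± 0.08, limma adjusted p = 0.0228), while Stat2 (-0.27 ± 0.08, limma adjusted p = 0.0298) and Stat5b (-0.36 ± 0.09, limma adjusted p = 0.0225) fell.

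**Figure D4:**
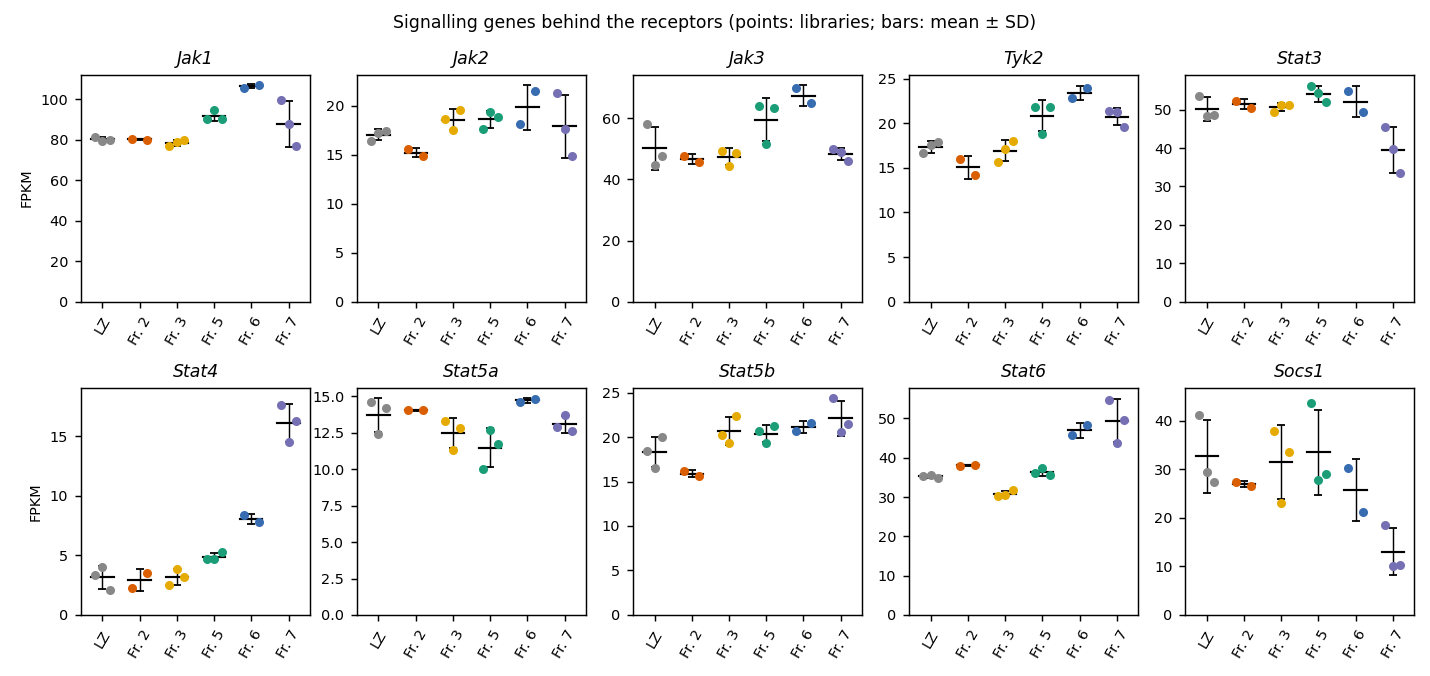
FPKM (y axis, own scale in each panel) of the 4 Janus kinases, 5 STAT factors and Socs1 in the 6 gates (x axis). Points are libraries and bars are the mean ± SD. Stat4 climbs through Fractions 5, 6 and 7 to 16.1 FPKM, and Socs1 is lowest in Fraction 7, at 13.0 FPKM.

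Of 17 feedback inhibitors of this signalling, 5 rose and 6 fell in Fraction 7 against LZ, where 62.1% of all genes were called, 24.1% higher and 38% lower. Among those that rose are Cish and Socs2, which reached the filter only through Fraction 7, and Socs5, which reached it there and in 1 library of Fraction 6, so nothing more is read from that count. Socs1, an inhibitor of Janus kinases, was at 18.6, 10.1 and 10.2 FPKM in Fraction 7 and at 41.2, 29.4 and 27.3 FPKM in LZ, with no overlap, and fell by 1.30 ± 0.25 (limma adjusted p = 0.000532). It was lower in the libraries with more plasma cell transcript. Ptpn6, the SHP-1 phosphatase gene, was at 327 ± 19 FPKM in Fraction 7 and 413 ± 17 FPKM in LZ (SD, n = 3 each; limma adjusted p = 0.00321). Cish, a target and inhibitor of STAT5 signalling, was at 1.44 ± 0.68 FPKM in Fraction 7 and 0.0664 ± 0.064 FPKM in LZ, and no test is given for it because it reached the filter only through Fraction 7.

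Among 28 other cytokine receptor chains, 19 passed the filter. In Fraction 7 against LZ, 13 of these rose and 0 fell, where 62.1% of all genes were called and 24.1% were higher. That count includes Csf2rb2, which reached the filter only through Fraction 7. Among the 19, Il15ra would also have missed the filter without Fraction 7, since it reached 1 FPKM elsewhere only in 1 library of Fraction 5, at 1.89 FPKM. Entry through Fraction 7 favours a rise there, so nothing more is read from the count. In Fraction 5 against Fraction 3, 7 rose and 0 fell, where 29.5% of all genes were called and 9.99% were higher. Csf2rb, the beta chain shared by the receptors for IL-3, IL-5 and GM-CSF, was at 6.47 ± 0.79 FPKM in Fraction 7 and 0.69 ± 0.24 FPKM in LZ (2.15 ± 0.13, limma adjusted p = 6.07e-09). Il27ra, which pairs with Il6st, was at 15.4 ± 0.26 FPKM in Fraction 7 and 3.37 ± 1.3 FPKM in LZ (1.95 ± 0.18, limma adjusted p = 4.34e-07). Il5ra was at 12.5 ± 2.0 FPKM in Fraction 7 and 3.60 ± 0.36 FPKM in LZ (1.55 ± 0.15, limma adjusted p = 5.7e-07; SD, n = 3 each for these genes). Crlf2, a chain of the TSLP receptor, rose by 1.12 ± 0.13 (limma adjusted p = 5.84e-06). Of 14 ligand genes, including those for IL-21, IL-4, IL-6, IL-9 and IL-10, 13 stayed under 1 FPKM in every library, and Il11 reached 2.81 FPKM.

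Genes often linked to STAT6 and STAT3 were read beside the receptors. All 5 tested genes on a list of STAT6-associated genes fell in Fraction 7 against Fraction 6, where 13.9% of all genes fell, with a median change of -1.13 against -0.05 for all genes. Among them Il4i1, an amino acid oxidase induced by IL-4, was at 93.5 ± 12 FPKM in Fraction 7 and 281 ± 3.8 FPKM in Fraction 6 (SD, n = 3 and 2; -1.58 ± 0.13, limma adjusted p = 2.68e-06). Fcer2a, the low-affinity IgE receptor CD23, was at 328 ± 16 FPKM in Fraction 7 and 553 ± 24 FPKM in Fraction 6 (-0.75 ± 0.10, limma adjusted p = 0.000137). In Fraction 6 against Fraction 5, 3 of the 5 rose and 0 fell, where 17.5% of all genes were called and 7.07% were higher. Il4i1 rose by 0.53 ± 0.13 (limma adjusted p = 0.0137), Fcer2a by 0.39 ± 0.10 (limma adjusted p = 0.0169) and Ccl22 by 2.82 ± 0.37 (limma adjusted p = 0.000116). In Fraction 2 against Fraction 3, where Il4ra fell, 1 of the 5 rose and 0 fell (15.6% of all genes called). The median change was 0.36. In Fraction 5 against Fraction 2, where Il4ra rose, 2 rose and 1 fell (43.7% called), with a median of -0.16. Fraction 5 against Fraction 3 had 2 rising and 0 falling (29.5% called), and Fraction 7 against LZ 0 and 3 (62.1% called). Of 8 tested STAT3-associated genes, 2 rose and 2 fell in Fraction 7 against LZ, where 62.1% of all genes were called, 24.1% higher and 38% lower, with Bcl2, a survival gene, higher by 2.86 ± 0.20 (limma adjusted p = 3.86e-08) and Batf lower at -0.62 ± 0.12 (limma adjusted p = 0.000516).

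The genes whose level followed each receptor most closely over the 16 libraries were looked up among tested genes with a mean of at least 5 FPKM. Pearson r on the log2 scale was highest with Havcr1 for Il21r (0.978), Irf5 for Il4ra (0.975), Ly6d for Il2rg (0.991), Cd97 for Il6ra (0.989), Sspn for Il6st (0.970), Cytip for Il10ra (0.984), Serpinb1a for Il10rb (0.992) and Ugcg for Ifngr1 (0.885). These values are descriptions over libraries that share the same 6 gates. Among the receptors themselves, Il2rg and Il6ra had r = 0.935 over the 16 libraries and Il21r and Il6ra r = -0.908, and the neighbours Il21r and Il4ra had r = 0.06.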

How the data were processed

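Messenger RNA was measured by RNA-seq. Per the labels' protocols, RNA was extracted with TRIzol and sequenced from NEBNext Ultra libraries. This kit keeps no strand information, so a gene and an antisense partner cannot be told apart. Annotated genes overlap Il9r (Gm12109), Il6ra (Gm46811), Il10ra (Mir7086) and Il13ra1 (Gm42406) in RefSeq. Per the submitters' processing notes, which give no order or role, TopHat2 2.0.8, Cufflinks 2.1.1 and the mm9 build were used, and the authors deposited 1 table of FPKM. The reference at hand is GRCm38.p6, so coordinates are given only for the printed promoter sequences. Of the table's columns, 0 were left unused, and the 1 unnamed row was dropped. No 2 libraries were identical (0 pairs of equal columns).

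Genes that reached 1 FPKM in 2 or more libraries were tested on log2(FPKM + 1) with limma 3.58.1 in R 4.3.3, in 1 model of the 6 gates over 16 libraries with a variance trend. P-values were adjusted by Benjamini-Hochberg over the 11266 genes in each comparison, with a threshold of 0.05. Without counts, count models could not be used. Counting intervals are not given because depth is unknown. The script was tested on simulated data. Named genes are the 10 receptors, the Janus kinases and STAT factors, up to 4 called genes of each other list per comparison by adjusted p, the sort genes, and the 3 genes most correlated with each receptor, from which the text gives a part. The receptors and all lists were chosen with earlier results of these data known. Some pathway genes are not reported here. Alternatives were no filter, a filter of 5 FPKM, a pseudocount of 0.1, quantile and median-ratio scaling, array weights, a fit of only the groups compared, the replicate number as a block, and each library left out.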

Additional observations from a re-analysis of the deposited data

How the results depend on the processing

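Of 54 changes of the receptors in the 6 comparisons, 28 passed the threshold, and 20 of these kept their call under all 25 settings tried. The number of libraries, 2 or 3 a gate, limits the precision. Counts of called genes moved by over 1.5 times in these cases. With only the groups compared in the fit, Fraction 2 against Fraction 3 had 1108 genes (1760 with all groups) and 1 receptor gene (2 with all groups), Fraction 5 against Fraction 3 had 2 receptor genes (4), and Fraction 7 against Fraction 6 had 1248 genes (2393). Without Fraction 7 libraries 2 and 3, chosen after seeing the data, Fraction 7 against Fraction 6 had 1589 genes. Fewer libraries leave fewer degrees of freedom. With 1 library left out, and a lone library of a gate assumed to vary like the other gates, the counts ranged from 660 to 1980 genes and 1 to 2 receptor genes for Fraction 2 against Fraction 3, 2355 to 3498 and 2 to 5 for Fraction 5 against Fraction 3, 3817 to 5088 and 3 to 4 for Fraction 5 against Fraction 2, 1152 to 2138 and 4 to 4 for Fraction 6 against Fraction 5, 1334 to 2491 and 3 to 7 for Fraction 7 against Fraction 6, and 6489 to 7008 and 7 to 8 for Fraction 7 against LZ.

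Differences that changed sign had all missed the threshold, and the cause was not tested. For Fraction 2 against Fraction 3 these were, with array weights, Il2rg at 0.00141 and Ifngr1 at 0.000621, and with quantile normalisation Il10rb at -0.0123. For Fraction 5 against Fraction 3 they were Il6st at -0.0829 with quantile normalisation and -0.0236 with array weights, and Ifngr1 at 0.0222 with quantile normalisation. Quantile normalisation also turned Ifngr1 to 0.0876 in Fraction 5 against Fraction 2 and Il21r to 0.0205 in Fraction 6 against Fraction 5. With 1 library left out, the ranges that crossed 0 were -0.0478 to 0.0264 for Il2rg, -0.00522 to 0.0858 for Il10rb and -0.174 to 0.0923 for Ifngr1 in Fraction 2 against Fraction 3, -0.0620 to 0.0472 for Il6st in Fraction 5 against Fraction 3, -0.132 to 0.547 for Il9r and -0.206 to 0.0422 for Ifngr1 in Fraction 5 against Fraction 2, -0.100 to 0.694 for Il9r in Fraction 6 against Fraction 5, -0.262 to 0.532 for Il9r in Fraction 7 against Fraction 6, and -0.0296 to 0.149 for Il4ra in Fraction 7 against LZ.

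Replicate numbers gave little sign of pairing across the genes as a whole. For 36 pairs of gates and numbers, the correlation of deviations from the gate means lay between -0.184 and 0.155, and 5 exceeded 0.1. In gates of 2 libraries the deviations mirror each other, so these pairs are not all separate. Such correlations cannot show a pool or batch that affects few genes, and the labels do not give the pools. Over all genes, the block gave 1618 calls in Fraction 2 against Fraction 3 (1760 without it) and 7081 in Fraction 7 against LZ (6997 without it), and no comparison's count moved by over 1.5 times. With the replicate number as a block, Fraction 5 against Fraction 3 passed for Il9r (limma adjusted p = 0.00352), and Il9r in Fraction 6 against Fraction 5 was at -0.0136. Il9r was lowest in library 3 of each gate of 3, a hint from the data and not from the design.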
